A study of Mus musculus with 77 samples.

Results

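The livers described here came from *Ireb2*+/+ mice, the wild-type controls of a line that carries the *Ireb2* tm1.2Mwh null allele of iron regulatory protein 2 (IRP2), and were taken at ZT5 or at ZT12. Zeitgeber time (ZT) counts hours from the onset of light, so ZT5 lies in the middle of the light phase, when mice mostly rest, and ZT12 is the change to darkness, when feeding begins. Samples were chosen by genotype and time alone: 3 mice at ZT5 and 3 at ZT12, each with a library of ribosome-protected fragments (RPFs, the stretches of mRNA covered by a ribosome and so spared by RNase) and a total RNA library from the same liver lysate. They make up 6 of the 24 mice, 12 of the 48 libraries and 18 of the 77 count files, since 6 of the libraries were sequenced in 2 runs. The mice were adult males on a C57BL/6J background, and none of these 6 lacked an IRP. The rest of the study holds *Ireb2*-/- livers of the same line and the *Aco1*+/+ and *Aco1*-/- livers of the line for IRP1 at the same times. The question put to these livers is how RNA level, ribosome occupancy and translation efficiency (TE, RPF divided by RNA) change over the day without a knockout. Whole liver was measured, so a change in the cells present and a change within cells cannot be told apart.

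In the liver, a transcriptional clock runs in nearly every hepatocyte. The activators CLOCK and BMAL1 (encoded by *Arntl*) drive the *Per* and *Cry* genes, whose proteins in turn repress the activators, while REV-ERB proteins (*Nr1d1*, *Nr1d2*) act on *Arntl* itself. Feeding and fasting, hormones and body temperature add rhythms of their own, and food intake raises the translation of mRNAs that encode the protein synthesis machinery, many of which begin with a run of pyrimidines (the 5′ terminal oligopyrimidine, or TOP, motif).

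The depth of the libraries was 4478641 to 13439600 coding sequence (CDS) counts in RPF and 1317588 to 3649629 in RNA. The CDS took 93.2 to 95.6% of all RPF reads counted and 58.4 to 66.7% of all RNA reads. Hepatocyte markers, 10 of 10 detected, summed to between 106706 and 130076 CPM (counts scaled to a common library size) in RNA and between 172362 and 222065 in RPF. Markers of Kupffer cells (12 of 12 detected), endothelium (10 of 10) and stellate cells (10 of 10) lay between 491 and 758 CPM in RNA, and those of lymphocytes, of which *Trbc2* was at 0, between 0.614 and 3.01. One mouse stood apart. In ZT5 replicate 3, the sum of 8 pancreas acinar markers was 11650 CPM in RNA and 21818 in RPF, against 0.458 to 2.51 and 0.256 to 10.3 in the other 5 mice. Of the other 23 mice of the study, the highest sums were 284 in RNA and 1146 in RPF, both in *Ireb2*-/- ZT12 replicate 1. Its group shared the estimate of spread and is compared with these livers below. The RNA library of ZT5 replicate 3 also had 0.947% of its CDS counts in mitochondrially encoded genes, against 3.82 to 4.09% in the other 5 mice. It correlated with theirs at 0.841 to 0.856 (Pearson's r of log2 CPM across 6479 genes of 1 pair of libraries, a description), against 0.948 to 0.979 among them. The part of ZT5 replicate 3 in the results was not tested, so the main counts are also given without this mouse, which leaves 2 mice at ZT5. Calls lost without it are named, and those lost without another mouse are not. Of the calls of named genes in RPF, 34 were lost without ZT5 replicate 3, 60 without ZT12 replicate 1 and 63 without ZT5 replicate 1.

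**Figure D1:**
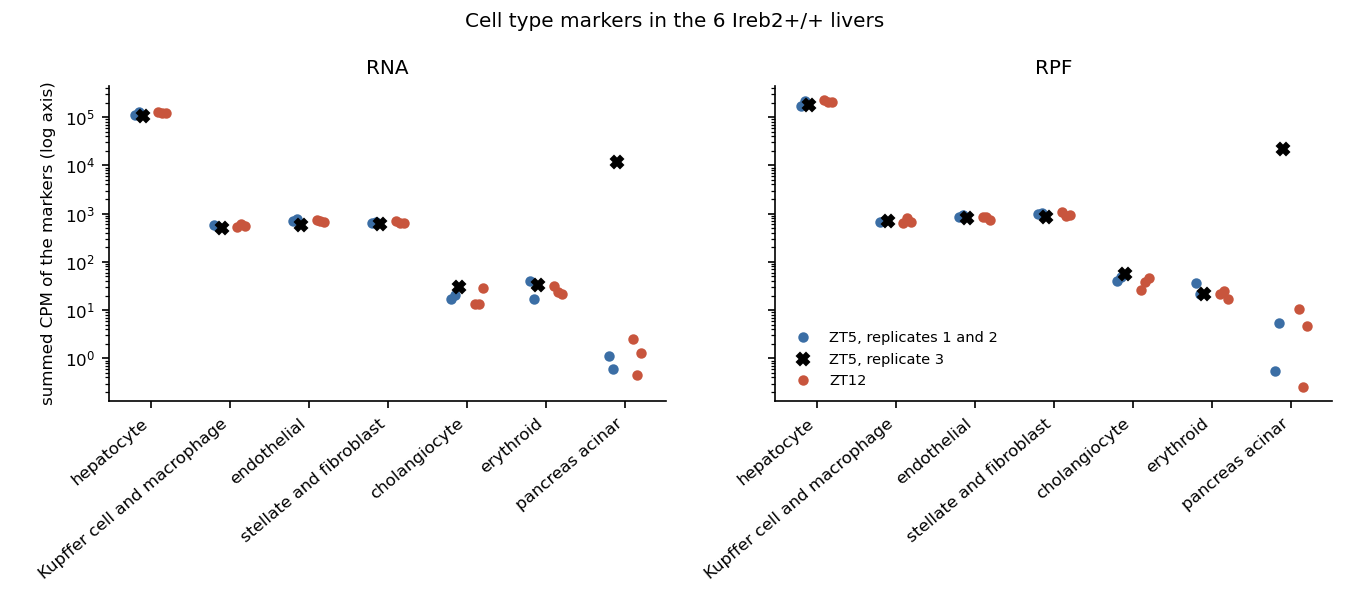
Summed CPM (log axis) of cell type marker genes in the RNA (left) and RPF (right) libraries of the 6 *Ireb2*+/+ livers; blue points are ZT5 replicates 1 and 2, black crosses ZT5 replicate 3 and red points the 3 ZT12 mice. Pancreas acinar markers reached 11650 CPM in RNA and 21818 CPM in RPF in ZT5 replicate 3 and at most 10.3 CPM elsewhere, while hepatocyte markers were at 106706 CPM or more in every library.

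Of 25266 genes in the count files, 10696 passed the filter on low counts. Between ZT5 and ZT12, 117 genes rose in RNA (1.09% of those tested) and 128 fell (1.2%). In RPF, 388 rose (3.63%) and 417 fell (3.9%). In TE, 53 rose (0.496%) and 4 fell (0.0374%). With DESeq2 and its size factors the RPF calls split into 357 that rose and 226 that fell. All other calls are from edgeR's quasi-likelihood test at an adjusted p under 0.05, and the median log2 fold change of all genes was -0.02 in RNA, -0.02 in RPF and 0.00 in TE. Without ZT5 replicate 3, 118 rose (1.1%) and 116 fell (1.08%) in RNA, 320 rose (2.99%) and 319 fell (2.98%) in RPF, and 88 rose (0.823%) and 18 fell (0.168%) in TE. Of the genes called with all mice, 169 of RNA, 561 of RPF and 48 of TE were also called without it. Leaving out another mouse moved some counts further, to 104 RNA calls without ZT12 replicate 1 and 389 RPF calls without ZT5 replicate 1. The values of the 3 mice a side did not overlap for 19.1% of genes in RNA, 27.1% in RPF and 12.4% in TE.

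RNA and RPF calls shared 175 genes, each in the same direction. These were 71.4% of the RNA calls and 21.7% of the RPF calls. The 417 genes that fell in RPF had median log2 fold changes of -0.70 in RPF and -0.58 in RNA, with RNA in the same direction for 402 of them. The 388 that rose had medians of 0.95 in RPF, 0.46 in RNA and 0.34 in TE. Of these, 81 also passed in RNA and 45 in TE, and no gene passed in both RNA and TE. 

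**Figure D2:**
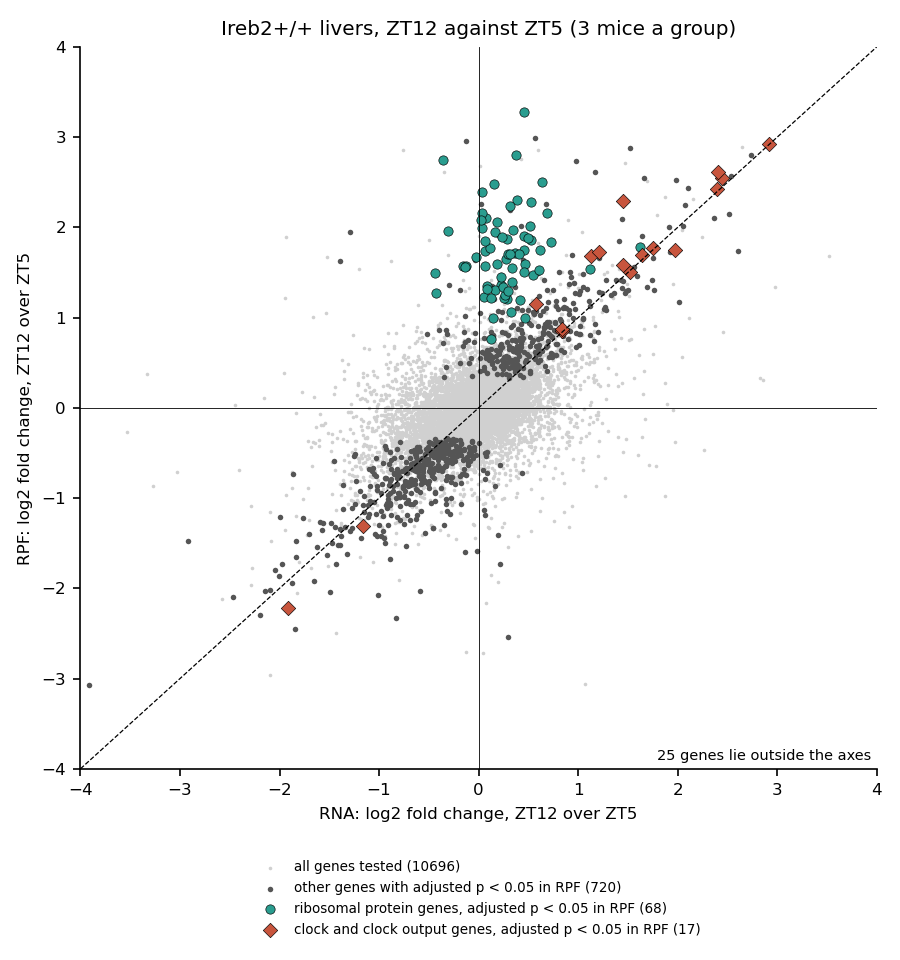
Log2 fold change from ZT5 to ZT12 in RNA (horizontal) and in RPF (vertical) for 10696 genes in *Ireb2*+/+ livers, 3 mice a group; the dashed line marks equal change, and 25 genes lie outside the axes. The 17 clock and clock output genes called in RPF (diamonds) have the same sign in RNA and RPF, some of them off the dashed line (*Ciart* at 1.45 in RNA and 2.29 in RPF), and the 68 ribosomal protein genes called in RPF (green) lie above that line; the median RNA change over the 77 tested was 0.27.

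Some core clock genes passed in RNA and in RPF. Of 15 core clock genes, all tested, 2 rose and 1 fell in RNA, and 6 rose and 1 fell in RPF. With DESeq2 the counts were closer, 5 higher and 1 lower in RNA and 6 higher and 1 lower in RPF. In TE edgeR and DESeq2 called 0 of them, and 2 had an unadjusted p under 0.05. *Per1*, which encodes a repressor arm of the clock, had RNA at 6.35, 4.91 and 12.1 CPM at ZT5 and at 37.2, 38 and 45.7 CPM at ZT12, a log2 fold change of 2.39 ± 0.27 (SE, n = 3 a group, adjusted p = 8.6e-06 by edgeR). Its RPF level rose from 5.58, 4.16 and 8.98 to 30, 35.1 and 34.1 CPM (2.43 ± 0.30, adjusted p = 0.00047). All ZT12 mice lay above all ZT5 mice in both, and the log2 change in TE was 0.03. *Per3* rose in RNA (1.13 ± 0.25, adjusted p = 0.011) and in RPF, from 2.65, 3.8 and 3.64 to 13.2, 11.8 and 8.93 CPM (1.69 ± 0.23, adjusted p = 0.00015). *Nr1d1*, the gene of the repressor REV-ERBα, went the other way, from 110, 88.4 and 100 to 19.6, 37.7 and 17.4 CPM in RNA (-1.92 ± 0.23, adjusted p = 9.1e-05) and from between 106 and 179 to 23.1, 58.1 and 14.3 CPM in RPF (-2.21 ± 0.46, adjusted p = 0.025). No ZT12 mouse reached the level of a ZT5 mouse, and ZT12 replicate 2 was the highest of its group in both.

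*Ciart*, *Cry1* and *Per2* were called in RPF and missed the threshold in RNA. *Ciart*, a repressor of CLOCK and BMAL1, had RPF levels of 1.26, 2.03 and 2.73 CPM at ZT5 and 9.84, 10.8 and 9.55 at ZT12 (log2 fold change 2.29 ± 0.28, adjusted p = 5e-05), with an RNA change of 1.45 ± 0.44 (adjusted p = 0.085). The repressor genes *Cry1* and *Per2* rose in RPF, *Cry1* by 1.75 ± 0.36 (adjusted p = 0.011) and *Per2* by 1.51 ± 0.31 (adjusted p = 0.015). In RNA their changes were 1.97 and 1.52 with adjusted p of 0.11 and 0.081, and the 3 mice a side did not overlap for either gene. *Arntl* itself had few reads. Its RNA levels were 3.59, 4.91 and 6.92 CPM at ZT5 and 1, 0.686 and 3.87 CPM at ZT12, and its changes of -1.72 in RNA and -0.88 in RPF did not pass (adjusted p = 0.14 and 0.42), with ZT12 replicate 3 inside the range of ZT5. The values of *Clock* (-0.55 in RNA, -0.57 in RPF), *Cry2* (0.17 and 0.37), *Nr1d2* (0.42 and 0.52), *Rora* (0.31 and 0.41), *Bhlhe40* (0.54 and 0.59), *Bhlhe41* (-1.05 and -1.29) and *Npas2* (-1.81 and -1.71) did not pass either. Without ZT5 replicate 3, 3 core clock genes rose and 2 fell in RNA, and 6 rose and 1 fell in RPF.

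CLOCK and BMAL1 bind the E-box CACGTG, and the D-box TTATGTAA is bound by the factors DBP, TEF, HLF and NFIL3. The windows below show where these letters stand near the starts of core clock genes, 1 window a gene, and they include *Bhlhe41*, whose negative values did not pass. Sequences are from RefSeq on GRCm38.p6, read 5′ to 3′ on the strand of the gene, with the element in capitals. They lie at chr11:69098771-69098800 (plus strand, -166 from the annotated start) for *Per1*, chr10:85185097-85185126 (minus, -60) for *Cry1*, chr3:95882269-95882298 (minus, -58) for *Ciart*, chr6:145865556-145865585 (minus, -153) for *Bhlhe41* and chr4:151044852-151044881 (minus, -205) for *Per3*.
Per1: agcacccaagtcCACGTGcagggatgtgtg
Cry1: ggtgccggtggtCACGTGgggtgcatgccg
Ciart: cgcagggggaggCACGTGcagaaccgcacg
Bhlhe41: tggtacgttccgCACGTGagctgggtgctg
Per3: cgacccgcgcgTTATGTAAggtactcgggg
Both strands were searched in promoters of 250 bases before to 50 after each start, of which 8515 of the genes tested had at least 1. CACGTG, a palindrome, stood in 10.0% of all 10939 promoters. It stood in 4 of the 16 promoters of core clock genes (25%) and in 4 of the 22 of clock output genes (18.2%). It stood in 19.0% of the 116 promoters of genes that rose in RNA and in 9.56% of the 136 of genes that fell. Its share was also 22.0% in the 59 promoters of translation factors. In ribosomal protein genes it was 11.8% of 68 promoters, and 19.2% of the 26 of those that rose in TE. The higher share was thus not particular to clock genes. TTATGTAA or its reverse complement stood in 0.53% of all promoters and in 4 of the 116 of genes that rose in RNA (3.45%). It stood in 1 of the 16 promoters of core clock genes and in 0 of the 22 of clock output genes. A match says only that the letters are there.

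Clock output genes, which respond to the core clock and other daily cues, included the clearest changes of the data. Of 23, all tested, 7 rose and 2 fell in RNA, 9 rose and 1 fell in RPF, and 0 were called in TE by edgeR or DESeq2 (2 at an unadjusted p under 0.05). *Nampt*, the rate-limiting enzyme of NAD salvage, ranked first among genes that rose in RNA and in RPF. Its RNA was at 57.7, 66.9 and 38.7 CPM at ZT5 and 168, 168 and 216 CPM at ZT12 (log2 fold change 1.75 ± 0.16, adjusted p = 4.7e-07), and its RPF level rose from 56.1, 59.8 and 62.1 to 189, 171 and 246 CPM (1.77 ± 0.13, adjusted p = 2.3e-07). *Por*, the reductase that supplies electrons to microsomal cytochromes P450, was second in both, from 476, 438 and 360 to 1277, 1058 and 1477 CPM in RPF (1.58 ± 0.13, adjusted p = 8e-07). *Usp2*, a deubiquitinase, rose in RNA from 8.56, 7.36 and 13.8 to 62.3, 41.6 and 53.5 CPM (2.41 ± 0.26, adjusted p = 8.6e-06). In all of these the ZT12 mice lay above the ZT5 mice in both RNA and RPF.

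Larger changes with more spread were seen in *Lpin1*, a phosphatidate phosphatase and transcriptional coactivator. Its RPF level was 119, 113 and 83.7 CPM at ZT5 and 786, 319 and 1277 CPM at ZT12 (log2 fold change 2.92 ± 0.55, adjusted p = 0.016), and ZT12 replicate 2 was the lowest of its group. The same mouse was lowest at ZT12 in *Alas1*, the first enzyme of heme synthesis, whose RPF level went from 192, 412 and 415 to 1640, 1166 and 3161 CPM (2.55 ± 0.61, adjusted p = 0.044). *Upp2* (RPF 0.88), *Gys2*, the liver glycogen synthase (0.85), *Wee1*, the mitotic inhibitor kinase (1.69), and *Tef* (1.15) also rose in RPF, and *Avpr1a*, the vasopressin receptor of the liver, fell by 1.31 ± 0.27 on the log2 scale (adjusted p = 0.0098). *Elovl3*, a fatty acid elongase, fell in RNA from 170, 171 and 110 to 31.1, 55.6 and 52.8 CPM (-1.68 ± 0.27, adjusted p = 0.005), while its RPF change of -1.77 missed the threshold (adjusted p = 0.053). The other members did not pass in RNA or RPF, with RNA changes of 0.33 for *Dbp*, 0.47 for *Cyp7a1*, 1.88 for *Noct*, 1.79 for *Tsku*, 0.97 for *Rgs16*, 0.51 for *Klf10*, -0.13 for *Klf15*, -0.14 for *Klf9*, 0.03 for *Hlf*, -0.30 for *Nfil3*, -0.86 for *Nr0b2* and -0.31 for *Ppard*. With ZT5 replicate 3 left out, 8 members rose and 1 fell in RNA and in RPF. The calls of *Lpin1* in both, *Gys2* and *Avpr1a* in RNA, and *Alas1* and *Wee1* in RPF then missed the threshold, with the same direction.

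**Figure D3:**
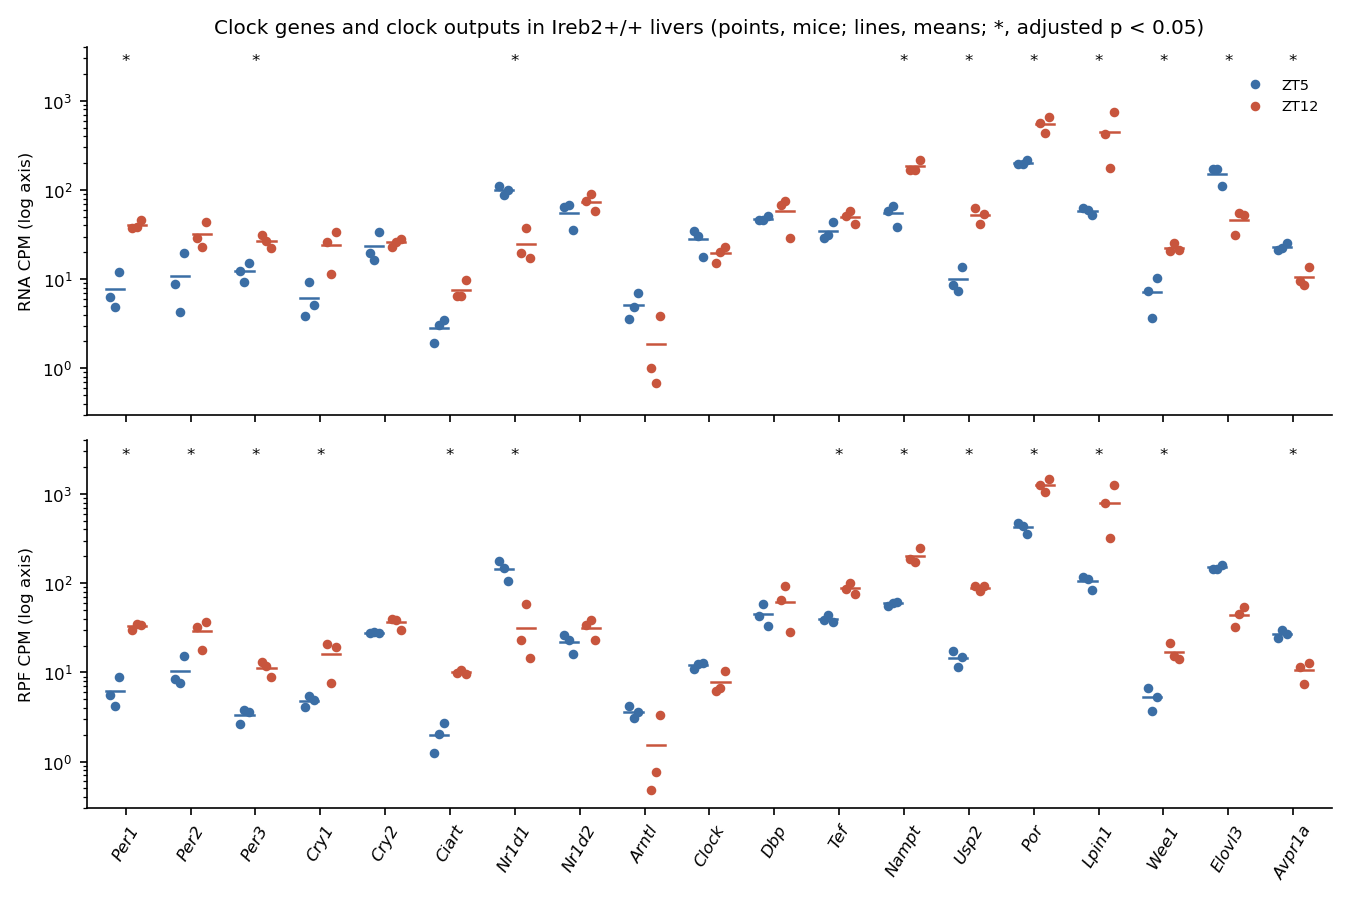
CPM (log axis) in RNA (top) and RPF (bottom) of core clock and clock output genes in the 6 *Ireb2*+/+ livers, with ZT5 mice in blue, ZT12 mice in red and lines at the means of 3; asterisks mark an adjusted p under 0.05 with edgeR. *Per1*, *Nampt*, *Por* and *Usp2* rose in both kinds of library, and *Nr1d1* and *Avpr1a* fell in both.

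Genes induced by fasting or glucocorticoids, 25 of 26 tested, had medians of 0.57 in RNA and 0.59 in RPF, and 3 rose in RNA and 5 in RPF, with none called lower. *Zbtb16*, a zinc finger transcription factor, rose in RPF from 9.49, 5.66 and 5.21 to 45.9, 23.3 and 39.2 CPM (log2 fold change 2.44 ± 0.27, adjusted p = 8.4e-05). *Fkbp5*, a co-chaperone of the glucocorticoid receptor and one of its classical targets, rose in RPF from 14.9, 19.4 and 14.7 to 89.8, 35.1 and 214 CPM (2.80 ± 0.58, adjusted p = 0.026), with ZT12 replicate 2 again the lowest of its group. *Foxo1*, the insulin-restrained transcription factor, rose by 0.96 ± 0.15 (adjusted p = 0.00045) and *Mt2*, a metallothionein, by 1.70 ± 0.36 (adjusted p = 0.01). *Lpin1* is the fifth. When ZT5 replicate 3 was left out the RPF median was 0.72, and *Fkbp5* and *Lpin1* missed the threshold. *Dusp1*, a MAP kinase phosphatase listed with the immediate early genes, rose in RNA from 15.7, 11 and 20.8 to 62.3, 76.2 and 58.6 CPM (2.06 ± 0.24, adjusted p = 3.1e-05), and in RPF by 2.01, a call lost without ZT5 replicate 3.

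Genes of glucose and glycogen metabolism rose where they moved. Of 37 tested, 3 rose in RNA and 7 in RPF, and none was called lower, with medians of 0.30 and 0.27. *Pfkfb3*, which makes the activator of phosphofructokinase, went from 7.12, 12.7 and 13.4 to 89.3, 34.6 and 74.4 CPM in RPF (log2 fold change 2.57 ± 0.45, adjusted p = 0.01). *Slc37a4*, the glucose 6-phosphate transporter of the endoplasmic reticulum, rose in RNA by 1.01 ± 0.16 (adjusted p = 0.00053) and in RPF by 0.82 ± 0.14 (adjusted p = 0.0013). *Khk* (ketohexokinase), *Gpi1* (phosphoglucose isomerase), *Pfkfb1* and *Tkt* (transketolase) rose in RPF by 0.68, 0.65, 0.56 and 0.41, and *Gys2* is the remaining member. Of these, *Pfkfb1* missed the threshold without ZT5 replicate 3, as did *Gys2* in RNA.

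Lipid genes moved in both directions. Among 24 tested genes of lipogenesis, 2 rose and 2 fell in RNA, and 3 rose and 4 fell in RPF. *Thrsp*, a lipogenic regulator, rose in RPF from 238, 154 and 261 to 962, 718 and 1422 CPM (log2 fold change 2.25 ± 0.49, adjusted p = 0.03). *Fads2*, a fatty acid desaturase, and *Plin4*, a lipid droplet protein, rose by 0.60 and 1.10, and *Acaca* (acetyl-CoA carboxylase) and *Dgat2* (triglyceride synthesis) rose in RNA by 0.58 and 0.51. *Insig2*, which holds the sterol sensor SCAP in the endoplasmic reticulum, fell in RPF from 69.1, 84 and 74.3 to 18, 28.4 and 33.3 CPM (-1.49 ± 0.30, adjusted p = 0.017). *Plin2* (-1.16), *Elovl5* (-0.79) and *Mlxipl*, the gene of the carbohydrate sensor ChREBP (-0.58), fell with it. Leaving out ZT5 replicate 3, the calls of *Thrsp*, *Elovl5* and *Plin2* in RPF and of *Acaca* and *Plin2* in RNA missed the threshold.

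Of 26 cholesterol genes, 1 fell in RPF (3.85%, against 3.9% of all genes tested). It was *Hmgcs1*, the enzyme before HMG-CoA reductase, from 1342, 861 and 978 to 305, 505 and 229 CPM (log2 fold change -1.62 ± 0.37, adjusted p = 0.035), and this call was lost without ZT5 replicate 3. The list had medians of -0.34 in RNA and -0.25 in RPF. In RNA edgeR called 0 of its members, 11 had an unadjusted p under 0.05 and DESeq2 called 1, lower. Among 39 genes of fatty acid oxidation and ketogenesis, the acyl-CoA thioesterases *Acot4* (RPF 1.12 ± 0.17, adjusted p = 0.00031) and *Acot1* (1.45 ± 0.26, adjusted p = 0.0032) rose, and *Crot*, the peroxisomal carnitine octanoyltransferase, fell from 1320, 1356 and 1208 to 383, 637 and 408 CPM in RPF (-1.44 ± 0.19, adjusted p = 0.00061). These thioesterase genes have near-identical copies, and reads may be split between them. The list's medians of 0.02 in RNA and in RPF were near those of all genes. Of 26 bile acid genes 2 fell in RNA and 3 in RPF. *Abcb11*, the bile salt export pump, fell in RPF from 1200, 1064 and 1180 to 557, 606 and 495 CPM (-1.05 ± 0.12, adjusted p = 2.6e-05). *Acox2* and *Amacr*, which shorten the side chain of bile acid precursors, fell in RPF by 0.65 and 0.51 on the log2 scale. *Hsd3b7*, an early enzyme of bile acid synthesis, fell in RNA by 1.29 on that scale, a call lost without ZT5 replicate 3.

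Genes of amino acid breakdown fell in RNA or RPF where they were called, with 1 exception. Of 39 genes of the urea cycle and amino acid catabolism, 4 fell in RNA, and 1 rose and 9 fell in RPF. *Hal*, histidine ammonia-lyase, fell in RPF from 992, 869 and 836 to 381, 400 and 410 CPM (log2 fold change -1.18 ± 0.13, adjusted p = 1.8e-05) and in RNA by 1.03 on the log2 scale. *Cbs* and *Cth*, the pair of enzymes that turn homocysteine into cysteine, fell in RPF by 0.95 and 0.75, and *Bhmt*, which remethylates homocysteine, fell from 813, 623 and 580 to 190, 246 and 344 CPM (-1.37 ± 0.29, adjusted p = 0.025). *Agxt* (-0.69), *Kynu* (-0.70), *Oat* (-0.97), *Slc25a15*, the mitochondrial ornithine carrier (-0.50), and *Ftcd* (-0.35) are the other members that fell. *Asl*, argininosuccinate lyase of the urea cycle, rose by 0.53 ± 0.12 (adjusted p = 0.0096). *Oat*, *Slc25a15* and *Ftcd* missed the threshold without ZT5 replicate 3. The medians of the list were -0.10 in RNA and -0.12 in RPF, and of 12 periportal markers 2 fell in RNA (*Hal* and *Aldh1b1*), and the same 2 fell and 1 rose in RPF, *Serpina1c* by 0.58, with *Aldh1b1* lost in both without ZT5 replicate 3. Of 12 pericentral markers 1 fell in RPF, *Oat*.

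The genes with the smallest adjusted p among those that fell are given next by rank. *Tymp*, thymidine phosphorylase, was first in RNA and RPF, with RNA at 48, 47.2 and 47.3 CPM at ZT5 and 11, 12.4 and 10.3 CPM at ZT12 (log2 fold change -2.05 ± 0.18, adjusted p = 4e-07). *Cldn1*, a tight junction claudin, fell in RPF from 56.1, 60.4 and 58.2 to 18.5, 18.9 and 18.1 CPM (-1.66 ± 0.18, adjusted p = 1.5e-05). *Cldn3* fell in RNA by 1.03 and *Tjp3*, a tight junction scaffold, by 1.76 on the log2 scale. *Krt18* (-1.24), *Eps8l2* (-1.47), *Gas7* (-2.20) and *S100a10* (-1.31) fell in RNA as well. So did *Ethe1*, the mitochondrial persulfide dioxygenase (-1.57), *Pdcd4*, an inhibitor of the initiation factor eIF4A (-0.90), and *Stra6l*, a retinol transporter (-0.93). In RPF, *Chka* (choline kinase, -1.32), *Pim1* (a kinase, -1.52), *Dhrs3* (-0.86), *Adh4* (-0.84), *Amt* (-0.94) and *Trim14* (-1.04) complete the first 15. Among genes that rose in RNA, *Slc16a12*, a creatine transporter (1.33), ranked after *Nampt* and *Por*, and the first 15 also held *Coq10b* (1.5), *Vps13a* (1.28), *Tspan4* (1.21), *Ces1d*, a carboxylesterase (1.02), *Ivns1abp* (1.09), *Gde1* (1.45), *Nmrk1*, a nicotinamide riboside kinase (1.59), *Zbtb16* and *Slc35g1* (1.47). Their groups did not overlap, by the rule that chose them. *Lonrf3* (2.53) and *Nrep* (1.73) ranked with *Tspan4*, *Gde1* and *Slc16a12* in RPF.

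Of the lists, the cytosolic ribosomal proteins, the structural proteins of the ribosome, had the most members called in RPF and in TE. Of 84 genes in the files 77 passed the filter. In RPF 68 rose and 0 fell, in TE 32 rose and 0 fell, and in RNA edgeR called 0, with 13 at an unadjusted p under 0.05 and 2 called by DESeq2, both higher. The medians over the 77 genes were 0.27 in RNA, 1.59 in RPF and 1.42 in TE, and 76 were above 0 in RPF and 74 in TE. The mice did not overlap in 73 of the 77 in RPF and in 52 in TE, always with ZT12 higher. Over all genes tested they did not overlap for 27.1% in RPF and 12.4% in TE, in either direction. In each ZT5 mouse the median log2 TE was -1.90, -1.30 and -0.71, and in each ZT12 mouse 0.42, 0.22 and -0.05. ZT5 replicate 3, the mouse with pancreas markers, was the closest to ZT12, and its RNA median of 3.61 log2 CPM was below the 4.30 to 4.63 of the other 5 mice. Without it 68 rose in RPF and 51 in TE, with medians of 1.71 and 1.68.

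*Rpl26*, first by adjusted p in TE, had RNA at 27.9, 28.2 and 21.9 CPM at ZT5 and 30.6, 24.5 and 29 CPM at ZT12 (log2 fold change 0.08 ± 0.18). Its RPF level rose from 7.4, 9.91 and 10.3 to 49.7, 43.8 and 27.9 CPM (2.11 ± 0.22, adjusted p = 2.6e-05), and TE by 2.09 ± 0.24 (adjusted p = 5.6e-07). The RNA values overlapped and the RPF values did not. *Rpl14*, *Rpl13a*, *Rps7* and *Rplp2* rose in TE by 1.81, 2.59, 2.55 and 1.26. The largest RPF change among the 68 was that of *Rpl13* (3.28 ± 0.47, adjusted p = 0.00069), from 0.698, 1.5 and 0.39 to 11.5, 12.5 and 5.5 CPM. Members with many reads moved less than that: *Rpl4* went from 98.1, 139 and 173 to 376, 329 and 308 CPM (1.31 ± 0.20, adjusted p = 0.0019), and *Rps3* from 91, 126 and 139 to 327, 279 and 271 CPM (1.30 ± 0.21, adjusted p = 0.0021). ZT5 replicate 1 was the lowest mouse in *Rpl26*, *Rpl4* and *Rps3*, and ZT5 replicate 3 in *Rpl13*. Ribosomal protein genes have many near-identical pseudogene copies, so how reads were split among them is uncertain, and the calls in TE depended on the model: limma on the log2 RPF/RNA ratio called 0 genes in TE (757 at an unadjusted p under 0.05).

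TOP mRNAs begin at a C within a run of pyrimidines, so the annotated starts of several members are shown, from RefSeq on GRCm38.p6, 10 bases before the start and 20 from it, with the longest pyrimidine run that reaches within 5 bases of the start in capitals. *Rpl14*, *Rpl13a* and *Rplp2* hold a long run and *Rpl26* and *Rps7*, which moved as much in TE, a short one; *Eif3f* is an initiation factor subunit that rose in TE. The windows are chr9:120571507-120571536 (plus) for *Rpl14*, chr7:45128726-45128755 (minus) for *Rpl13a*, chr7:141447641-141447670 (plus) for *Rplp2*, chr11:68901556-68901585 (plus) for *Rpl26*, chr12:28635934-28635963 (minus) for *Rps7* and chr7:108934405-108934434 (plus) for *Eif3f*.
Rpl14: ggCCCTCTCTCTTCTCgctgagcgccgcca
Rpl13a: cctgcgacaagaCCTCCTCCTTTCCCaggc
Rplp2: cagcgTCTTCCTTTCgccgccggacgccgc
Rpl26: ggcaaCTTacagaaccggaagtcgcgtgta
Rps7: cggTTTCCacccacctacttccgctgtccc
Eif3f: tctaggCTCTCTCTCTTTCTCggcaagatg
A run of at least 8 pyrimidines within 5 bases of the annotated start stood in 24 of 68 promoters of ribosomal protein genes (35.3%), in 10 of 26 of those that rose in TE (38.5%) and in 10 of 59 of translation factors (16.9%). In all promoters of genes tested it stood in 1104 of 10939 (10.1%), and in those of mitochondrial ribosomal proteins in 7 of 73 (9.59%). Annotated starts can lie some bases away from the start in use, so a short run says only what the window holds.

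**Figure D4:**
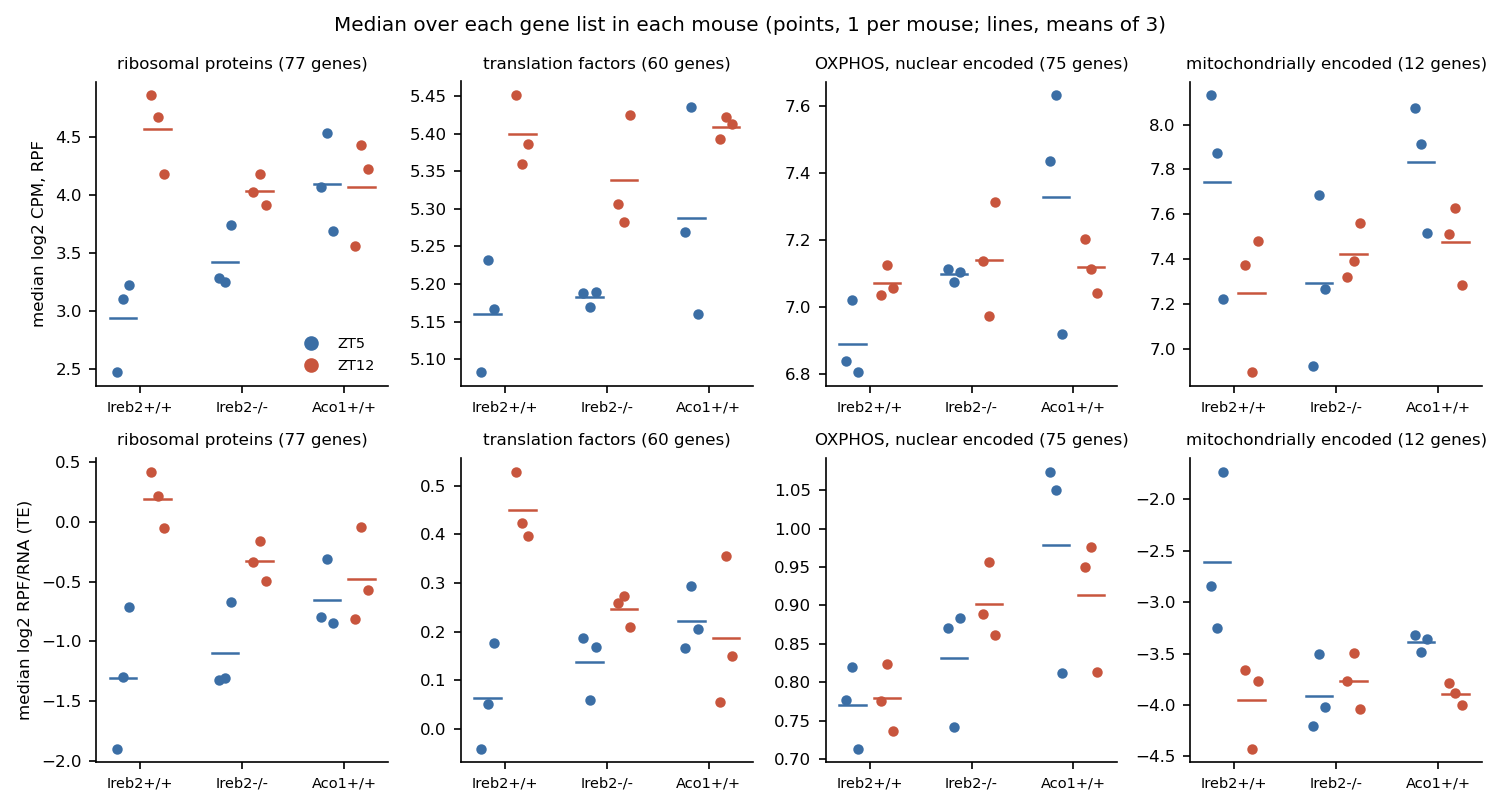
Median over 4 gene lists of log2 CPM in RPF (top) and of log2 RPF/RNA, TE (bottom), with 1 point for each mouse (blue ZT5, red ZT12) and lines at the means of 3, in *Ireb2*+/+, *Ireb2*-/- and *Aco1*+/+ livers; vertical axes differ between panels. In *Ireb2*+/+ livers the ribosomal protein medians did not overlap between ZT5 (-1.90 to -0.71) and ZT12 (-0.05 to 0.42) in TE, while in *Aco1*+/+ livers they did.

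Translation initiation and elongation factors also had calls in RPF and TE in 1 direction, with smaller medians. Of 60 tested, 17 rose and 0 fell in RPF and 7 rose and 0 fell in TE, with medians of 0.24 and 0.26. In RNA edgeR called 0 (9 at an unadjusted p under 0.05, and 3 with DESeq2, higher). *Eef1a1*, the factor that brings aminoacyl-tRNA to the ribosome and itself a TOP mRNA, had RPF levels of 93.5, 188 and 302 CPM at ZT5 and 1019, 899 and 744 CPM at ZT12 (log2 fold change 2.19 ± 0.48, adjusted p = 0.032), against RNA levels of 500, 515 and 579 and of 678, 666 and 644 CPM (0.32). *Eef1b2* rose in RPF from 37.4, 58.4 and 76.8 to 216, 165 and 158 CPM (1.64 ± 0.34, adjusted p = 0.021). Neither *Eef1a1* nor *Eef1b2* passed the threshold in TE. *Tpt1*, a TOP mRNA long used as an example of the class, rose in TE by 1.65 ± 0.24 (adjusted p = 1.9e-05), and *Eif3f* by 1.09 ± 0.20 (adjusted p = 0.0055). *Eif3h*, *Eif3k*, *Eif3a*, *Eif2s2* and *Eef1g* are the other members that rose in TE, by 0.43 to 1.31. *Eif4ebp3*, which encodes a repressor of cap-dependent initiation, rose in RPF from 4.05, 4.42 and 2.21 to 28.3, 11.5 and 23.4 CPM (2.55 ± 0.36, adjusted p = 0.0012). Chosen after their values were seen, *Eef2* (1.71 ± 0.55 in RPF, adjusted p = 0.11) and *Pabpc1* (1.35 ± 0.65, adjusted p = 0.28), both TOP mRNAs, did not pass. Their ZT5 levels spread widely, 242, 435 and 893 CPM for *Eef2* and 24.3, 38.1 and 140 CPM for *Pabpc1*, with ZT5 replicate 3 the highest in each. Leaving out this mouse, 17 factors rose in RPF and 10 in TE, while *Eif2b1* and *Eif3i* missed the threshold in RPF and *Eif2s2* and *Eef1g* missed the threshold in TE.

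Outside these lists, 14 genes rose and 4 fell in TE. *Hsp90ab1*, a cytosolic chaperone, rose by 0.50 ± 0.09 (adjusted p = 0.00031), with log2 TE at 0.392, 0.565 and 0.609 at ZT5 and 0.926, 1.07 and 1.08 at ZT12. *Atp5j2*, a subunit of ATP synthase, rose by 0.58, *Jun*, an immediate early transcription factor, by 1.07 and *Actg1* by 2.59, the last a call lost without ZT5 replicate 3. *Actg1* is nearly identical in sequence to *Actb*, which had a TE change of -0.13 (chosen after its value was seen). Reads may be shared between them, so the change of *Actg1* is uncertain. *Nfyb*, a subunit of the CCAAT-binding factor NF-Y, was the clearest of the genes that fell in TE: its RPF level went from 7.68, 7.87 and 10.8 to 2.4, 3.07 and 2.49 CPM, while RNA stayed between 10.4 and 16.5 CPM (TE -1.89 ± 0.34, adjusted p = 0.00059). *Cyp4a12a* (-0.58), *Cyp2c50* (-0.39) and *Mup16* (-1.32) are members of families with near-identical copies, and their TE is uncertain. The mice of *Mup16* overlapped in TE.

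Mitochondrially encoded mRNAs, translated by the ribosomes of the organelle, had medians below 0 in RPF and TE. Of 13 in the files 12 were tested, and none was above 0 in RPF or TE, with medians of 0.39 in RNA, -0.62 in RPF and -1.33 in TE. In RPF 1 fell, *mt-Atp6*, a subunit of ATP synthase, at 3.07, 1.68 and 1.56 CPM at ZT5 and 0.24, 0.256 and 0.415 CPM at ZT12, few reads in each. In TE edgeR called 0 (9 at an unadjusted p under 0.05, and 1 with DESeq2, lower). The median log2 TE was -2.85, -3.25 and -1.74 at ZT5 and -3.66, -4.42 and -3.77 at ZT12, without overlap, and ZT5 replicate 3, with its low share of mitochondrially encoded RNA, was the highest. Without it the medians were 0.00 in RNA, -0.85 in RPF and -0.83 in TE, and 4 fell in RPF and 1 in TE. Few genes of mitochondrial proteins made in the cytosol were called. Of 75 nuclear-encoded respiratory chain subunits 1 rose in RPF and 1 in TE, both *Atp5j2* (medians 0.09 and 0.06), and of 76 mitochondrial ribosomal proteins 1 fell in RPF, *Mrpl27* by 0.53 on the log2 scale. The RPF calls of *Atp5j2* and *Mrpl27* were lost without ZT5 replicate 3.

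**Figure D5:**
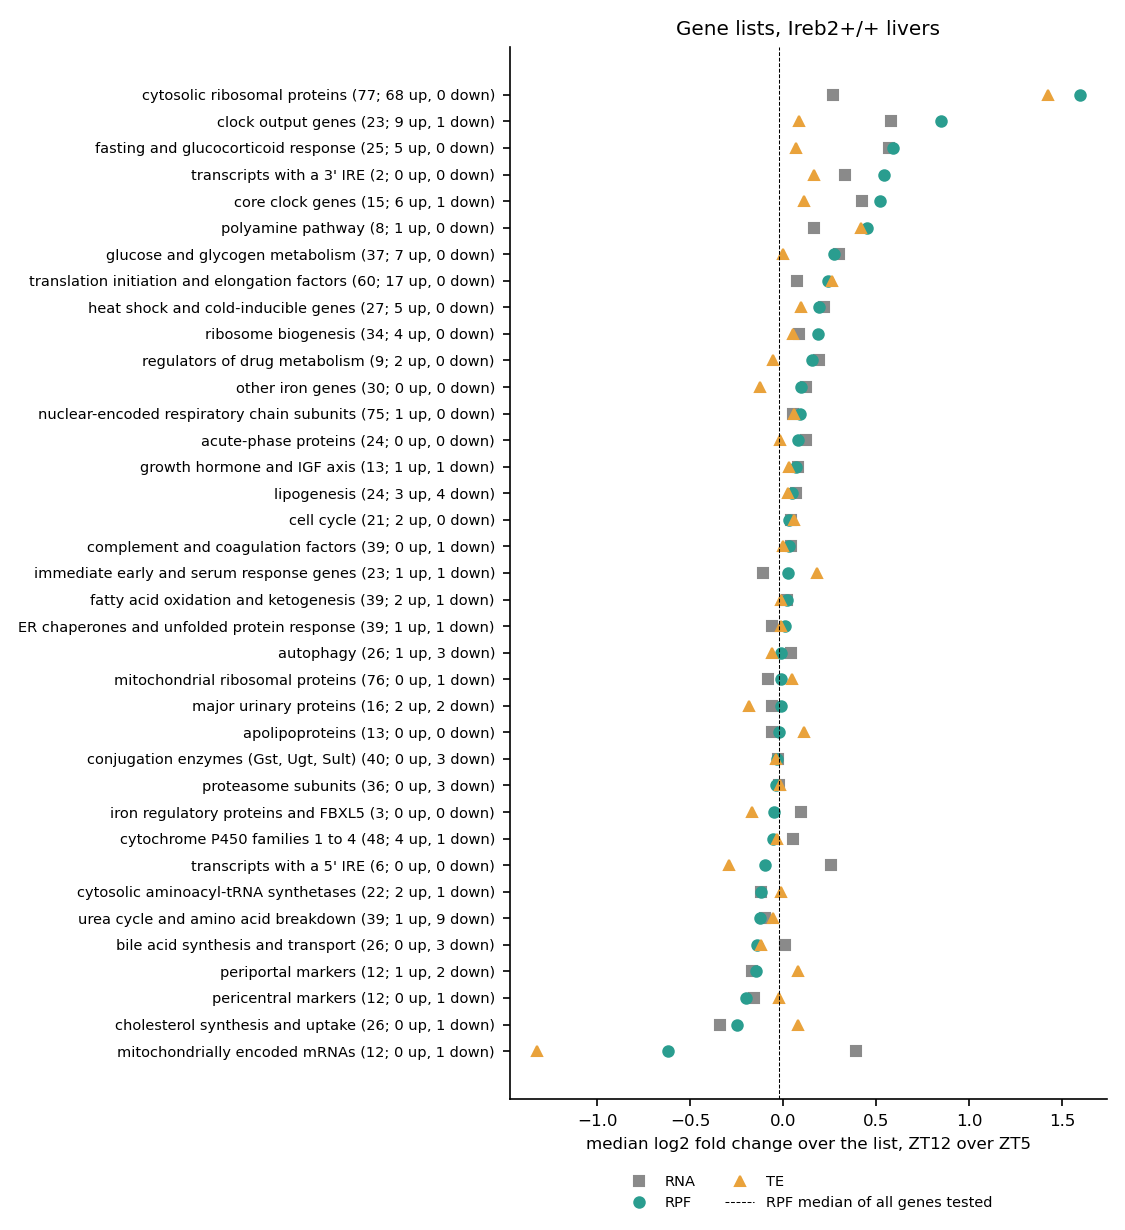
Median log2 fold change from ZT5 to ZT12 in RNA (squares), RPF (circles) and TE (triangles) over each of 37 gene lists in *Ireb2*+/+ livers, with the number of genes tested and the numbers called higher and lower in RPF beside each name; the dashed line is the RPF median of all genes tested. Cytosolic ribosomal proteins had the highest RPF median of the lists (1.59), and mitochondrially encoded mRNAs the lowest (-0.62).

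Chaperones and genes of ribosome assembly rose in small numbers. In RPF, 18.5% of heat shock and cold-inducible genes and 11.8% of ribosome biogenesis genes rose, against 3.63% of all genes tested. The ER genes had 2.56% higher and 2.56% lower, below the shares of all genes. Of 27 heat shock and cold-inducible genes, 2 rose in RNA and 5 in RPF with none called lower. *Hspa8*, the constitutive HSP70, rose in RNA from 44.7, 37.4 and 35.2 to 70.8, 68.9 and 86.3 CPM (log2 fold change 0.92 ± 0.15, adjusted p = 0.0008), and *Hsph1* by 0.94. In RPF, *Dnajb1* rose by 0.94, *Hspa8* by 0.85, *Hsph1* by 0.99, *Hspa1b* by 1.66 and *Tcp1*, a chaperonin subunit, by 0.55. Of 34 ribosome biogenesis genes 4 rose in RPF: *Ncl* (nucleolin, 0.65), *Npm1* (nucleophosmin, 0.84), *Rrn3* (an initiation factor of RNA polymerase I, 0.53) and *Rrs1* (0.62), while *Ubtf*, another polymerase I factor, fell in RNA by 0.68 on the log2 scale. *Srm*, spermidine synthase, rose in RPF by 1.09 ± 0.21 (adjusted p = 0.0045), 1 of 8 polyamine genes tested. *Herpud1*, of the unfolded protein response, rose in RNA by 0.91 and in RPF by 1.08, and *Pdia4*, an ER disulfide isomerase, fell in RPF by 0.35, the only calls among 39 ER genes. Among 22 aminoacyl-tRNA synthetase genes *Aimp1* and *Qars* rose in RPF (0.69 and 0.51) and *Lars* fell (-0.48). The RPF calls of *Rrs1*, *Pdia4* and *Lars* were lost without ZT5 replicate 3.

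Genes of turnover, growth and detoxification gave few calls. Over all genes tested, 3.63% rose and 3.9% fell in RPF. Some shares here were near these, such as 3.85% higher in autophagy and 2.56% lower in complement and coagulation genes. Others were larger, such as 11.5% lower in autophagy, 8.33% lower in the proteasome and 8.33% higher in cytochrome P450 genes. In autophagy, *Bnip3*, a mitophagy receptor, rose in RPF by 1.13 ± 0.19 (adjusted p = 0.002), and *Sqstm1* (-0.61), *Gabarapl1* (-0.60) and *Atg7* (-0.49) fell, out of 26. *Psma1*, *Psmd11* and *Psmd14* fell in RPF by 0.34 to 0.48, 3 of 36 proteasome subunits, with *Psmd14* alone still called without ZT5 replicate 3. *Igf1* rose in RPF by 0.38 ± 0.10 (adjusted p = 0.019) and *Stat5a* fell by 0.75, of 13 genes of the growth hormone axis, *Igf1* missing the threshold without ZT5 replicate 3. In the cell cycle list *Ccne1* rose in RNA (2.65, from at most 1.1 CPM at ZT5) and *Cdk1* in RPF (1.09), beside *Wee1* in both, and neither of the first pair passed without ZT5 replicate 3. *Nr1i2*, the pregnane X receptor, rose in RPF from 28.1, 33.4 and 22 to 59.5, 49.7 and 62.8 CPM (1.04 ± 0.14, adjusted p = 0.00015). Of 48 cytochrome P450 genes 4 rose in RPF (*Cyp2a4*, *Cyp2c69*, *Cyp2d40*, *Cyp3a16*) and *Cyp2u1* fell, and 3 glutathione transferases (*Gstm4*, *Gstm6*, *Gstm7*) fell in RPF. In RNA *Gstm3* and *Gstm6* fell by 1.23 and 0.66. Of the major urinary proteins, *Mup6* and *Mup10* rose and *Mup8* and *Mup16* fell in RPF. *Cyp2c69*, *Cyp3a16*, *Cyp2u1*, *Mup6* and *Mup10* missed the threshold without ZT5 replicate 3, and the mice of *Cyp2c69* and *Cyp3a16* overlapped. All these families have near-identical copies between which reads may be shared, so their values are uncertain. *Serpinf2* fell in RNA and RPF (-0.62 and -0.59), the only call among 39 complement and coagulation genes, and *Vcl*, vinculin, a serum response gene, fell in both (-0.65 and -0.47), the RPF call lost without ZT5 replicate 3. Of 24 acute-phase and 13 apolipoprotein genes edgeR called 0 in RNA and RPF (acute-phase, 5 and 4 at an unadjusted p under 0.05 and 1 in each with DESeq2, higher; apolipoproteins, 0 and 0, and 0 with DESeq2). The smallest p in RPF in these lists were those of *Saa4* (0.51) and *Fgg* (-0.38), and of *Apoa5* (0.32) and *Apob* (-0.13).

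No mRNA with an iron-responsive element was called in RPF or TE by edgeR or DESeq2 (1 and 2 at an unadjusted p under 0.05), and of 30 other iron genes *Uros* (-0.88) and *Slc39a14* (0.38) had the smallest p in RPF.

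The same comparison in other livers was set beside these changes. In RPF, 286 genes rose in *Ireb2*-/- livers (2.67%) and 536 in *Aco1*+/+ livers (5.01%), and in TE 1 rose (0.00935%) and 12 (0.112%). Of the ribosomal protein genes, 8 rose in RPF in *Ireb2*-/- livers with a median of 0.67, and 0 in *Aco1*+/+ livers with a median of -0.02. The median log2 TE of the list in *Aco1*+/+ mice was -0.80, -0.31 and -0.85 at ZT5 and -0.81, -0.04 and -0.57 at ZT12, with overlap, and in *Ireb2*-/- mice -1.32, -1.31 and -0.67 and then -0.33, -0.16 and -0.50, without. The difference from *Aco1*+/+ livers passed the test for 0 genes in RNA (0.0%, 757 at an unadjusted p under 0.05, 4 with DESeq2), 6 in RPF (0.0561%, 66 with DESeq2) and 5 in TE (0.0467%, 8 with DESeq2). Ribosomal protein genes were 3 of the 6 and 1 of the 5. *Rpl23a* had RPF changes of 2.00 ± 0.20 in *Ireb2*+/+ and 0.14 ± 0.26 in *Aco1*+/+ livers, a difference of 1.86 ± 0.37 (adjusted p = 0.049), *Rps6* a difference of 1.86 ± 0.34 (adjusted p = 0.034), and *Rpl14* one of 1.92 ± 0.37 in TE (adjusted p = 0.028). The median difference over the list was 1.56 in RPF and 1.24 in TE, against 0.02 and 0.00 over all genes. From *Ireb2*-/- livers the difference passed for 0 genes in RNA, RPF and TE (0.0% each, with 413, 426 and 562 at an unadjusted p under 0.05, and 0 with DESeq2), and the median over the ribosomal protein list was 0.95 in RPF and 0.72 in TE. Without ZT5 replicate 3, 6 genes differed from *Ireb2*-/- livers in TE, 4 of them higher and all 4 ribosomal protein genes, and without ZT5 replicate 2, 4 genes did. *Per1* rose in RPF by 2.43 in *Ireb2*+/+, 2.27 in *Ireb2*-/- and 2.69 in *Aco1*+/+ livers, and its differences of 0.17 ± 0.45 and -0.26 ± 0.42 did not pass (adjusted p = 1 and 0.87). *Nampt* rose by 1.77, 1.79 and 2.12, with differences of -0.02 ± 0.18 and -0.35 ± 0.23 (adjusted p = 1 and 0.63). The lines were bred separately, so an effect of the line and any other difference between their mice cannot be told apart. These comparisons across lines take ZT5 replicate 3 as part of the *Ireb2*+/+ group. The *Ireb2*-/- livers include ZT12 replicate 1, which also had pancreas markers, and its part was not tested. Without *Ireb2*+/+ ZT5 replicate 3, 10 genes differed from *Aco1*+/+ livers in RPF, 8 of them higher and 7 of these ribosomal protein genes, and 0 in TE. The RPF genes numbered 0 without ZT5 replicate 1 or ZT12 replicate 1, and the TE genes 0 without ZT12 replicate 1 or 2.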

How the data were processed

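The deposited files hold raw counts of reads per Ensembl gene, 1 file for each sequencing run. According to the methods, the authors trimmed reads with cutadapt (3.5), selected reads by length, removed rRNA and tRNA reads with Bowtie2 and aligned the rest with STAR (2.70f) using an Ensembl annotation. The counting tool and its use of strand are not given in the sources used here. The files have no header, and column 3 was read as the CDS from its share of reads.

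Runs of a library were summed. Genes were filtered with filterByExpr (minimum count 10, minimum total 15), and upper quartile factors were set over all 48 libraries with edgeR (4.0.16, R 4.3.3). RNA, RPF and TE were tested by edgeR's quasi-likelihood test, with Benjamini-Hochberg adjustment over all 10696 genes and a threshold of 0.05. Within the *Ireb2* line its 4 groups shared the estimate of spread, and differences from *Aco1*+/+ livers were fitted over all 24 mice. TE was the term for library kind and time in a model of both libraries of each mouse. The SE was obtained as |log2 fold change|/√F. Log2 TE of a mouse used a prior count of 0.5. CPM are not scaled for gene length and do not rank genes against each other. DESeq2 (1.42.0), limma (3.58.1), TMM, other filters, single runs, left-out mice and a replicate block were alternatives. The tests were tried on simulated counts first. An exact two-sided permutation test of 3 against 3 mice cannot go below p = 0.1, so overlap is stated in words.

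Genes named were the 15 with the smallest adjusted p in each direction whose groups did not overlap, leaving out predicted genes, all members of the clock and iron-responsive element lists, and members of the other lists that passed in RNA, RPF or TE, or, where none passed, the 2 with the smallest p in RPF. The members and lists were chosen with earlier results of these data known. The p-values measure the spread between mice. Runs of a library differed no more than sampling (chi-square per degree of freedom 0.998 to 1.04), while mice of a group differed more (2.62 to 58.6). Results of some genes named by this rule are not reported here.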

Additional observations from a re-analysis of the deposited data

Results flagged for a closer look

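The change from ZT5 to ZT12 differed between *Ireb2*+/+ and *Aco1*+/+ livers for 11 genes by edgeR's test of the difference. The counts changed when a mouse was left out, and the cause was not tested. The 6 in RPF became 0 without ZT5 replicate 1 or ZT12 replicate 1, 2 without ZT5 replicate 2 or ZT12 replicate 2, and 19 without ZT12 replicate 3. The 5 in TE became 0 without ZT12 replicate 1 or 2 and with the stricter filter, 2 without ZT5 replicate 1 and 3 without ZT12 replicate 3. In RPF, *Hist1h2bc*, a histone gene with near-identical copies, had a change of 0.73 in *Ireb2*+/+ and -1.46 in *Aco1*+/+ livers, a difference of 2.20 (adjusted p = 0.034). *Ehhadh*, of peroxisomal fatty acid oxidation, differed by -1.11 (-0.38 and 0.73, adjusted p = 0.034), and *Aldh4a1*, of proline breakdown, by -0.88 (-0.37 and 0.51, adjusted p = 0.042). The ribosomal protein genes *Rps6* (1.86), *Rpl23a* (1.86) and *Rpl38* (1.35) differed with adjusted p of 0.034, 0.049 and 0.049.

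In TE, *Rpl14* differed by 1.92 (1.81 and -0.12, adjusted p = 0.028), *Gabarap*, of autophagosome formation, by 1.42 (0.74 and -0.68, adjusted p = 0.028), *Ddrgk1* by 0.98 (0.60 and -0.38, adjusted p = 0.043), *Gc*, the vitamin D binding protein, by 0.59 (0.25 and -0.34, adjusted p = 0.042) and *Oplah* by -0.89 (-0.24 and 0.64, adjusted p = 0.043). Without ZT5 replicate 3, the mouse with pancreas markers, none of the genes in TE passed (adjusted p = 0.057 for *Gabarap* and 0.12 for the others), nor did *Rps6* and *Rpl23a* in RPF (adjusted p = 0.054 each).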

How the results depend on the processing

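No call of a named gene changed direction in the alternatives run. Of gene and alternative pairs, 860 of 953 in RNA, 2476 of 2880 in RPF and 513 of 740 in TE stayed past the threshold. The cause was not tested where counts moved. Genes called in RNA (245 in the report) were 424 with all transcript regions summed and 141 with only the 6 mice fitted. RPF calls (805) were 525 with the stricter filter, which tests fewer genes. TE calls (57) were 0 with limma, 22 with RPF and RNA not paired by mouse and 23 with the stricter filter. Ribosomal protein genes higher in RPF (68) were 32 with the stricter filter, and those higher in TE (32) were 0 with limma, 20 unpaired by mouse and 9 with the stricter filter.

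Leaving out each mouse gave 104 to 234 RNA calls (104 without ZT12 replicate 1, 155 without ZT12 replicate 3), 389 to 776 RPF calls (389 without ZT5 replicate 1, 411 without ZT12 replicate 1, 516 without ZT12 replicate 3) and 30 to 106 TE calls (30 without ZT12 replicate 2, 106 without ZT5 replicate 3). Ribosomal protein genes higher numbered 56 to 68 in RPF and 23 to 51 in TE.

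Genes that differed from *Aco1*+/+ livers were 4 in RNA with DESeq2 (0 with edgeR). In RPF (6) they were 66 with DESeq2, 3 with all regions, 29 with the stricter filter and 0 to 19 with each mouse left out. In TE (5) they were 8 with DESeq2, 8 with all regions, 0 with the stricter filter and 0 to 4 with each mouse left out. From *Ireb2*-/- livers, TE (0) gave 1 with no filter and 0 to 6 with each mouse left out.

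With the replicate number as a block, calls were 278 in RNA, 705 in RPF and 56 in TE, 22 and 8 for RPF and TE against *Aco1*+/+ and 2 for TE against *Ireb2*-/- livers. Same-numbered mice deviated together at 0.01, 0.09 and 0.14 in RNA and -0.33, 0.19 and 0.10 in RPF, so the numbers were not taken to pair mice.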
